A study of Mus musculus with 4 samples.

Results

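miR-126a is the miRNA that endothelial cells carry as their hallmark. Its hairpin lies in the gene Egfl7, which encodes a factor that blood vessel endothelium secretes, and both arms of the hairpin can be loaded into the RISC. Here both arms, mmu-miR-126a-3p and mmu-miR-126a-5p, were followed in Ago-bound small RNAs of mouse brain at 2 and 18 months of age. They were taken as every sequence that the annotated count table names for either arm, summed by arm and by 6mer seed (positions 2 to 7). This gave 375 of the 85704 sequences in the table, 268 for miR-126a-3p and 107 for miR-126a-5p, and 2 of its 1029 miRNA names. The sequences were selected on their deposited names alone, but miR-126a itself was chosen by its level in CPM, its shifted seed and its fall with age, all already seen in these libraries, so these patterns are described and are not independent support for anything.

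The young group comprised 2 libraries from 2-month-old BL6 mice and the old group 2 libraries from 18-month-old BL6 mice, with no transgene and no treatment in either group. The methods give the animals as male C57BL/6 J mice. Cortex and hippocampus were combined, 250 mg by the labels and about 150 mg by the methods. The Ago proteins were pulled down with a GW182 peptide and the RNA they held was sequenced (Ago-RP-Seq). Neither source says whether a library came from 1 mouse or from several, so the p-values below measure the spread between these libraries, which may be technical. The 4 libraries held 9062474 to 11384128 reads in the table, and 3 reads were worth 0.263 to 0.331 CPM (normalized counts, scaled to the same total in each library).

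In endothelium, miR-126a-3p is known for holding down inhibitors of growth factor signalling such as Spred1, and miR-126a-5p for holding down Dlk1, a ligand that restrains endothelial proliferation. A miRNA chooses its targets mainly by the bases that follow its first one. When the enzymes that cut the hairpin place the 5′ end 1 base further along, every position of the seed moves with it and another set of mRNAs can be matched. The study rates each 6mer seed by the viability it leaves in cells transfected with a short duplex that carries it, as the mean over 3 mouse cell lines in percent of the control, where a low value marks a toxic seed.

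The hairpin lies at chr2:26591357-26591429 on the plus strand (GRCm38.p6, RefSeq). By the GENCODE annotation of that build it lies in an intron of 7 protein-coding Egfl7 transcripts and in an exon of 1 retained-intron transcript. Bases 2 to 8 of each arm are in capitals, and the sequence is shown to place the arms in it.
Mir126a hairpin: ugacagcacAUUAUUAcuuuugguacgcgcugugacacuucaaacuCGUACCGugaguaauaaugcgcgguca
A selection from the 6 most abundant sequences of each arm follows, with bases 2 to 8 again in capitals. They were picked to show the shift of the seed and the added 3′ base described below. Not printed are rank 4 of miR-126a-3p and ranks 2 to 5 of miR-126a-5p by abundance.
miR-126a-3p, unshifted: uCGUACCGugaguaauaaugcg
miR-126a-3p, 1 base downstream: cGUACCGUgaguaauaaugcg
miR-126a-3p, 1 base downstream, uridine added: cGUACCGUgaguaauaaugcgu
miR-126a-3p, unshifted, adenosine added: uCGUACCGugaguaauaaugcga
miR-126a-3p, 1 base downstream, adenosine added: cGUACCGUgaguaauaaugcga
miR-126a-5p, unshifted: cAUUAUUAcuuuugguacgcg
miR-126a-5p, 1 base downstream: aUUAUUACuuuugguacgcg
The first of these is the RefSeq mature miR-126a-3p, chr2:26591402-26591423. For miR-126a-5p the 5′ end of its most abundant read, at position 26591365 of chromosome 2, was taken as unshifted.

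miR-126a-3p entered the RISC as a pair of forms of nearly equal abundance. The unshifted form, with the 6mer seed CGUACC (viability 38.4%), made up 52.1% and 47.4% of the miR-126a-3p reads in the young libraries, and 51.3% and 48.0% in the old ones (replicates 1 and 2 in this order throughout). The form that starts 1 base downstream, with the seed GUACCG (viability 60.9%), made up 45.9% and 50.9% in the young libraries and 44.9% and 49.9% in the old ones. No 95% Wilson interval of these shares was wider than 0.596 points to either side, which covers counting error only. The first replicate of each age thus held more of the unshifted form and the second more of the shifted one, so that the ages overlapped. A minor form, 1 base upstream with the seed UCGUAC (viability 63.8%), took 1.42% of the arm.

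The 5p arm kept to a single start. Its seed AUUAUU (viability 87.0%) took 97.3% of the reads and the form 1 base downstream, UUAUUA (viability 80.6%), took 1.95%. The other 37 of the 42 forms of both arms held under 1% of their arm each.

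Such an even split was uncommon. Among the 109 miRNAs with a mean of at least 1000 CPM, the median share of reads with a shifted seed was 2.80%, and 10 miRNAs passed 40%. miR-126a-3p ranked 8 with a mean of 50.3%, and miR-126a-5p ranked 61 with 2.68%. The miRNAs with the highest shifted share were miR-324-3p (85.8%), miR-101b-3p (69.7%), miR-132-5p (63.9%), miR-411-5p (60.0%) and miR-323-3p (58.0%). The unshifted seed was that of the RefSeq mature sequence for 96 of the 109 miRNAs and the most abundant seed for the others.

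**Figure D1:**
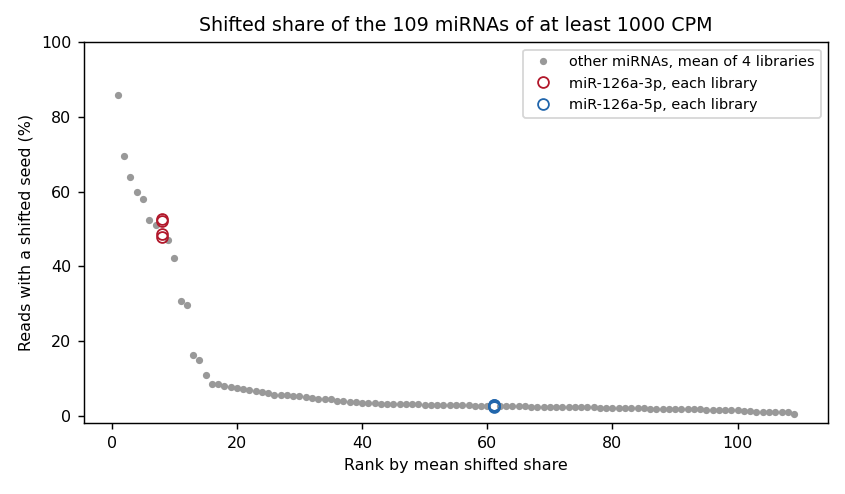
Share of reads with a shifted 6mer seed (vertical axis, percent) for the 109 miRNAs of at least 1000 CPM, ranked by their mean share (horizontal axis), with grey points for the means of other miRNAs and open circles for each of the 4 libraries of miR-126a-3p (red) and miR-126a-5p (blue). miR-126a-3p sits at rank 8 with 47.9% to 52.6% in the 4 libraries, far above the median of 2.80%, and miR-126a-5p at rank 61.

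The seeds of miR-126a belonged almost wholly to it. miR-126a gave 98.9% to 99.1% of the reads with CGUACC, 99.2% of those with GUACCG in every library, and 98.7% to 98.9% of those with AUUAUU. Most of the remainder were reads that the table assigns to the mir-126 hairpin without naming an arm, at 13.8 to 45.9 CPM for CGUACC. The next carriers of CGUACC were fragments of the tRNA gene trna1095-SerTGA, at up to 0.439 CPM. For AUUAUU the next carriers were fragments of an mRNA, at 2.72 to 4.35 CPM, and then miR-137-3p, a neuronal miRNA, at 0.528 to 2.29 CPM. No sequence of the table matched the Mir126b hairpin exactly, and none was named for an Egfl7 transcript.

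The level of miR-126a-3p was lower at 18 months. It stood at 9242 and 8854 CPM in the young libraries and at 2557 and 6489 CPM in the old ones, that is 9048 ± 275 CPM against 4523 ± 2780 CPM (SD, n = 2 each). Both old libraries lay below both young ones, and replicate 1 of the 18-month libraries lay far below replicate 2. Among the 1029 miRNA names it ranked 28 in both young libraries, and 64 and 40 in the old ones. On the log2(CPM + 1) scale the change was -1.15 (standard error 0.43), with an unadjusted p of 0.0345 and an adjusted p of 0.266 by limma. At that unadjusted threshold of 0.05, 12.1% of the 456 miRNAs tested were called lower and 4.17% higher, and 1 passed after adjustment in this fit. On recovered reads 19 passed after adjustment with DESeq2, miR-126a-3p not among them, and 0 with edgeR.

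The size of the change rested on which libraries were used, and the call on the scale. Without replicate 1 at 18 months the log2 change of miR-126a-3p was -0.48, and without replicate 2 at 18 months it was -1.82. Without replicate 1 or 2 at 2 months it was -1.12 or -1.18. Each of these fits leaves 1 library at an age, with no spread of its own, so only the change is given for them here and below. The median change of all miRNAs was -0.22 in CPM and -0.01 once each library had been divided by its median-of-ratios factor. That scale gave miR-126a-3p a change of -0.94 (unadjusted p = 0.0564 by limma) and turned the calls over all miRNAs from 19 higher and 55 lower to 39 higher and 25 lower. On the recovered reads the change was -0.79 (unadjusted p = 0.0944 by edgeR's quasi-likelihood test) and -0.80 (unadjusted p = 0.0666 by DESeq2), and neither passed the threshold. In a whole tissue, fewer endothelial cells and less Ago-bound miR-126a-3p per cell cannot be told apart, and neither was tested. miR-126a-5p, from the same hairpin, stood between 2501 and 3000 CPM in the 4 libraries.

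**Figure D2:**
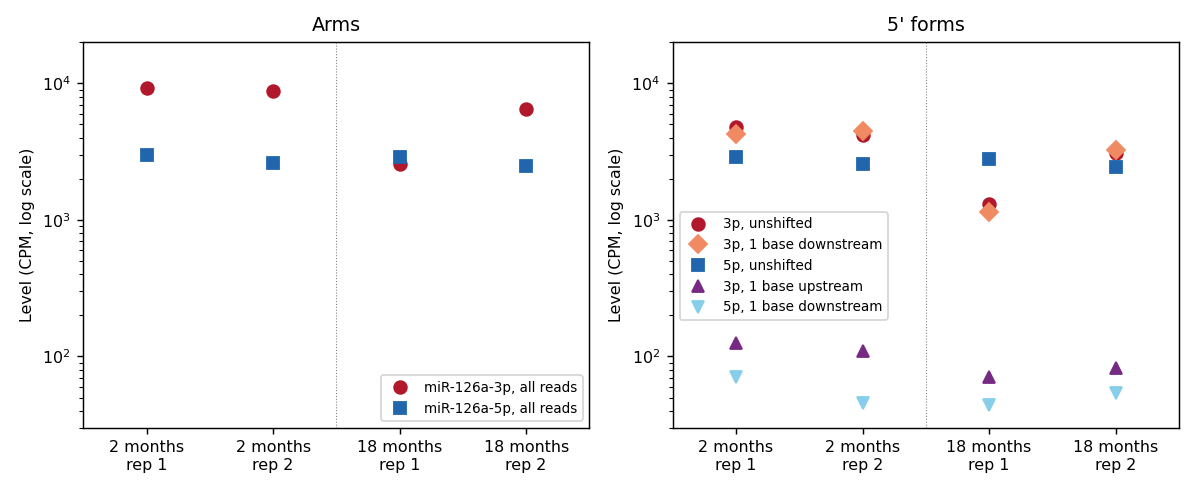
Levels (vertical axes, CPM on a log scale) of the 2 arms of miR-126a (left) and of its 5 forms of at least 1% of an arm (right) in each of the 4 libraries (horizontal axes), 1 point per library. The 3p points drop at 18 months, most in replicate 1, where the arm had 2557 CPM, while the 5p points stay between 2501 and 3000 CPM.

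The level of miR-126a-5p overlapped between the ages. It was 3000 and 2618 CPM in the young libraries and 2865 and 2501 CPM in the old ones, that is 2809 ± 270 CPM against 2683 ± 258 CPM (SD, n = 2 each). The log2 change was -0.07 (standard error 0.21, adjusted p = 0.901 by limma), and it became 0.15 after rescaling.

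The ratio of the arms, which no scaling of a library can move, put the 2 arms side by side. There were 0.325 and 0.296 reads of miR-126a-5p for each read of miR-126a-3p in the 2-month libraries, and 1.12 and 0.385 in the 18-month libraries. The 5p arm thus gave 24.5% and 22.8% of the miR-126a reads in the young libraries and 52.8% and 27.8% in the old ones, with no overlap. In replicate 1 at 18 months the usual order of the arms was turned round. The log2 change of the ratio was 1.08 (standard error 0.53), with an unadjusted p of 0.0912 and an adjusted p of 0.847 by limma, so a difference between the responses of the arms did not pass the test in this fit. It did with a pseudocount of 5 (unadjusted p = 0.0310 by limma) and with the replicate number, which is no known pairing, as a block (unadjusted p = 0.0115 by limma). It did not with a pseudocount of 0.1 (unadjusted p = 0.0681 by limma), without the trend (unadjusted p = 0.105 by limma) or with the stricter filter (unadjusted p = 0.0764 by limma). Of the 142 hairpins with both arms at a mean of at least 10 CPM, 1.41% were called higher and 2.11% lower, and miR-126a had the second largest rise and the 14th smallest p. Without replicate 1 at 18 months the change was 0.31, and without replicate 2 it was 1.85.

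**Figure D3:**
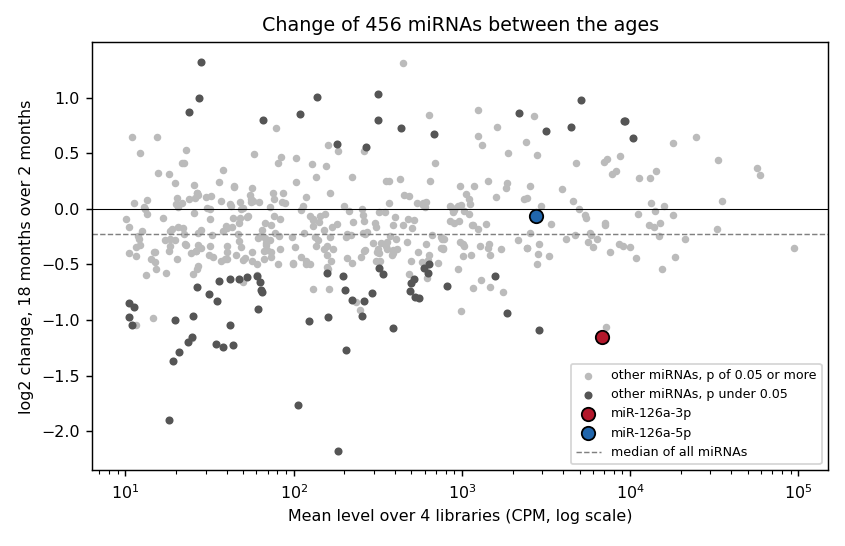
The log2 change from 2 to 18 months (vertical axis) against the mean level over the 4 libraries (horizontal axis, CPM on a log scale) of 456 miRNAs, with dark points for those with an unadjusted limma p under 0.05 and the dashed line at their median of -0.22. miR-126a-3p (red) lies at -1.15 and miR-126a-5p (blue) at -0.07.

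The unshifted and the shifted form of miR-126a-3p gave log2 changes of similar size. The CGUACC form had 4814 and 4194 CPM in the young libraries and 1313 and 3113 CPM in the old ones. The GUACCG form went from 4245 and 4505 CPM to 1148 and 3239 CPM. In both forms the old libraries lay below the young ones, with replicate 1 at 18 months lowest. The log2 change was -1.15 (unadjusted p = 0.0351 by limma) for CGUACC and -1.18 (unadjusted p = 0.0521 by limma) for GUACCG. Without replicate 1 at 18 months these became -0.53 and -0.43. Without replicate 2 at 18 months they became -1.77 and -1.93. They were -1.05 and -1.22 without replicate 1 at 2 months, and -1.25 and -1.14 without replicate 2 at 2 months.

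The minor form with the seed UCGUAC had 124 and 110 CPM in the young libraries and 70.6 and 81.7 CPM in the old ones. It lost less than the other forms in replicate 1 at 18 months, where it made up 2.76% of the arm against 1.24% to 1.35% in the other libraries. Its log2 change was -0.62 (standard error 0.22, unadjusted p = 0.0314 by limma), and ran from -0.72 to -0.51 with 1 library left out. Of 4 miR-126a-3p forms tested, 2 were called lower and none higher, and of 2 miR-126a-5p forms neither was called, where 9.56% of all 858 forms were called lower and 4.43% higher. After rescaling by the median-of-ratios factors the calls over all forms turned from 38 higher and 82 lower to 81 higher and 29 lower. No form passed after adjustment in this limma fit, while 14 forms did with DESeq2 on recovered reads and 1 with the stricter filter. The calls of both forms called, CGUACC and UCGUAC, were lost with the replicate number as a block (unadjusted p = 0.0815 for CGUACC and unadjusted p = 0.0539 for UCGUAC by limma), after rescaling (unadjusted p = 0.0505 and unadjusted p = 0.116 by limma) and with edgeR (unadjusted p = 0.0889 and unadjusted p = 0.0836).

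The balance of shifted and unshifted reads did not differ between the ages beyond the spread between libraries. The shifted share of miR-126a-3p was 47.9% and 52.6% in the young libraries and 48.7% and 52.0% in the old ones, a difference of 0.0674 points with an exact permutation p of 1 (two-sided). The exact test of 2 libraries against 2 cannot go below 0.333. The log2 change of the ratio of shifted to unshifted reads was 0.00 (standard error 0.15, unadjusted p = 0.980 by limma), and over all 236 miRNAs tested 2.54% were called higher and 1.69% lower. The mean seed viability over the miR-126a-3p reads was accordingly 49.2% and 50.3% in the young libraries and 49.4% and 50.1% in the old ones. Taken over both arms it was 58.4% and 58.6% in the young libraries and 69.2% and 60.3% in the old ones (exact permutation p = 0.333), where the share of the 5p arm was higher. Without replicate 1 at 18 months the difference of 6.24 points became 1.81 points.

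Single sequences showed the same direction over most of the 3p arm. Of the 268 miR-126a-3p sequences, 64 had a mean of at least 1 CPM and were tested. 58 of these had a negative log2 change, with a median of -0.83 and a range of -2.30 to 0.39, and 27 were called lower and none higher by limma. The filter took the mean over all 4 libraries, so a sequence near 1 CPM could pass through its 2-month level alone. These counts and the median include such sequences. With the 10 times stricter filter, which tests fewer sequences, 9 were called lower. Over all 14287 sequences tested, 4.23% were called lower and 5.87% higher, and the median change was -0.01. After rescaling the calls turned from 838 higher and 605 lower to 1376 higher and 308 lower. None of the 64 passed after adjustment. The sequences share their libraries and the level of their arm, so they are not independent of each other. The log2 change of the whole arm was -0.48 without replicate 1 at 18 months. Of the 107 miR-126a-5p sequences 30 were tested, with a median change of -0.01, 1 called lower and 1 called higher.

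The most abundant sequence of all, the mature miR-126a-3p, had 2849 and 2670 CPM in the young libraries and 790.3 and 1723 CPM in the old ones. Its log2 change was -1.24 (unadjusted p = 0.00725, adjusted p = 0.335 by limma). The same sequence begun 1 base downstream went from 2392 and 2739 CPM to 583 and 1567 CPM, a change of -1.42 (unadjusted p = 0.00760, adjusted p = 0.335 by limma). The third in abundance, begun 1 base downstream with a uridine added, behaved otherwise. Its young libraries had 919 and 846 CPM and its old ones 373 and 1012 CPM, so that the ages overlapped and the change was -0.52 (adjusted p = 0.708 by limma). For the most abundant miR-126a-5p sequence the levels were 1787 and 1604 CPM in the young libraries and 1805 and 1415 CPM in the old ones.

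**Figure D4:**
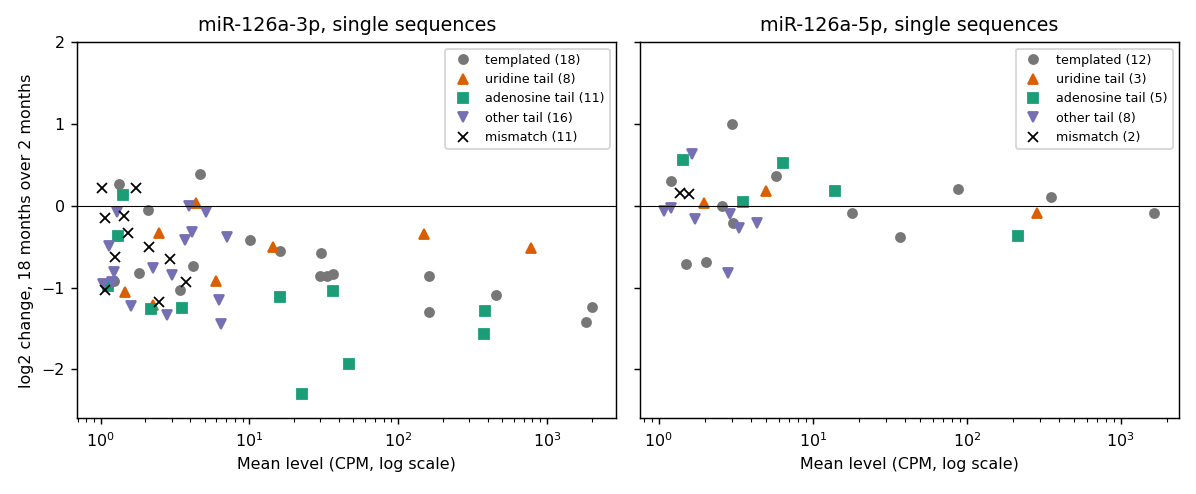
The log2 change from 2 to 18 months (vertical axes) against mean level (horizontal axes, CPM on a log scale) of the 64 miR-126a-3p (left) and 30 miR-126a-5p (right) sequences of at least 1 CPM, marked by what follows the last base that matches the hairpin, with the number of sequences in brackets. Most 3p sequences lie below 0, those with an added adenosine lowest (median -1.25), and the 5p sequences lie around 0. The share of 3p reads with an added adenosine was 8.24% in replicate 1 at 18 months and 13.0% to 14.6% in the other libraries.

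An added 3′ uridine separated the 2 forms of miR-126a-3p. This base, which is not in the hairpin, ended 4.32% and 4.06% of the unshifted reads in the young libraries and 6.89% and 7.16% in the old ones. For reads that began 1 base downstream it was 21.9% and 18.9% in the young libraries and 32.7% and 31.5% in the old ones. The Wilson intervals were at most 0.836 points to either side. The shifted reads carried the uridine more often than the unshifted ones in all 4 libraries, and in both forms the old libraries lay above the young ones. Such a gap between the starts was not general. Among 40 miRNAs with at least 100 CPM at both starts, the median gap was 0.192 points, 14 had a higher share at the downstream start in all 4 libraries and 13 a lower one, and miR-126a-3p ranked 5 with 20.7 points.

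Over all miR-126a-3p reads the share with an added uridine was 12.4% and 11.6% in the young libraries and 18.4% and 19.3% in the old ones. The 2 replicates of each age lay close together and the ages were apart. The log2 change of the ratio of such reads to all others was 0.77 (standard error 0.12), with an unadjusted p of 0.00122 and an adjusted p of 0.182 by limma, in a comparison chosen after the shares had been seen. Of 149 miRNAs tested, 2.68% were called higher and 2.01% lower, and miR-126a-3p had both the largest rise and the smallest p of the 149. The rise of miR-1983 was close to it (0.764 beside 0.768), and let-7f-1-3p changed by more in the other direction (-0.821). The median share over the 149 miRNAs was 5.77% and 5.93% in the young libraries and 5.49% and 6.43% in the old ones. The change of miR-126a-3p lay between 0.72 and 0.82 when any 1 library was left out. It stood at 0.81 without replicate 1 at 18 months, the library with the low 3p level. In CPM, reads with the added uridine stood at 1143 and 1027 in the young libraries and at 470 and 1250 in the old ones, while reads that match the hairpin to their end stood at 6640 and 6527 and at 1809 and 4170. The share thus differed between the ages where the level of the uridine-tailed reads overlapped. On miR-126a-5p the added uridine took 11.2% and 10.5% of the reads in the young libraries and 9.00% and 12.8% in the old ones, with overlap (log2 change of the ratio -0.02, adjusted p = 0.989 by limma).

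An added adenosine followed another pattern. It ended 14.0% and 13.0% of the miR-126a-3p reads in the young libraries, and 8.24% and 14.6% in the old ones, so that replicate 1 at 18 months was low and the other 3 libraries lay close together. By form it was 15.1% and 13.0%, then 9.41% and 16.2%, of the unshifted reads, and 13.2% and 13.4%, then 7.35% and 13.5%, of those begun 1 base downstream, so that the forms overlapped. The log2 change of the ratio to all other reads was -0.33 (unadjusted p = 0.265 by limma), and it was 0.13 without replicate 1 at 18 months and -0.79 without replicate 2. Of the 165 miRNAs tested 10.9% were called higher and 0.606% lower. The median share over them was 5.03% in replicate 1 at 18 months and 4.34% to 4.96% in the other libraries, so the low share of miR-126a-3p in that library was not shared by the median miRNA.

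**Figure D5:**
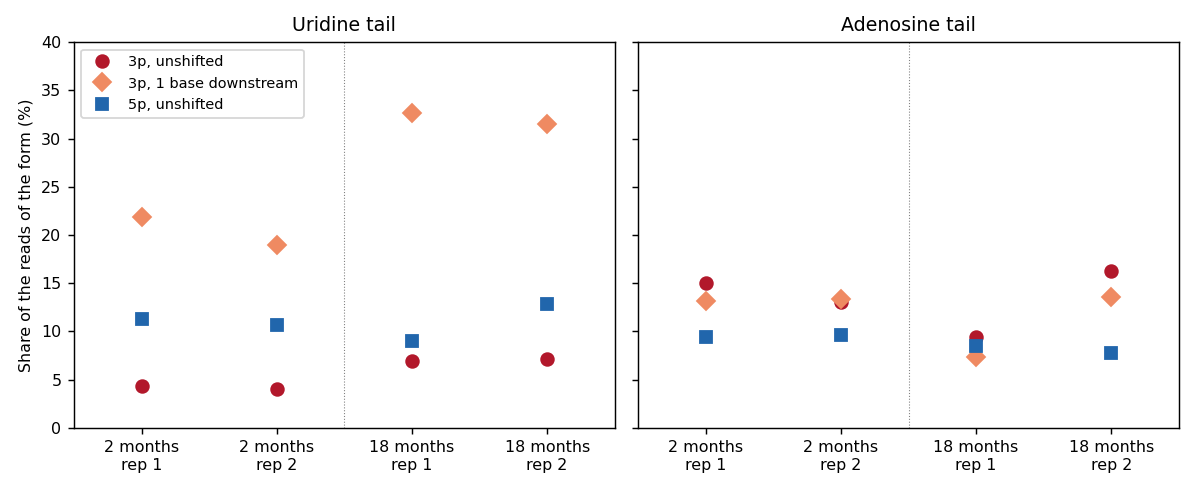
Share of reads (vertical axis, percent) that end in a uridine (left) or an adenosine (right) absent from the hairpin, in the 2 main forms of miR-126a-3p and the main form of miR-126a-5p, 1 point for each of the 4 libraries (horizontal axes). The uridine share of the downstream 3p form goes from 18.9% to 21.9% at 2 months to 31.5% to 32.7% at 18 months, and the adenosine share is lowest for 3p in replicate 1 at 18 months.

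Both forms of miR-126a-3p mostly ended at the same base. The last base that matched the hairpin was position 26591423 in 76.3% of the unshifted miR-126a-3p reads and in 91.9% of those begun 1 base downstream. The downstream reads were mostly 21 nucleotides long (56.6%) or 22 (36.3%), and the unshifted reads mostly 22 (61.9%). The mean length of miR-126a-3p reads was 21.60 and 21.56 nucleotides in the young libraries and 21.61 and 21.64 in the old ones (exact permutation p = 0.333). miR-126a-5p reads were 21 nucleotides long in 61.4% of cases.

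miRNAs that mark other cell types of the tissue were read beside miR-126a. Vascular smooth muscle and pericytes, which lie around the endothelium, are marked by miR-143 and miR-145a, whose 4 arms summed to 6464 and 6620 CPM in the young libraries and 5098 and 4981 CPM in the old ones. These sums did not overlap, and of the 4 arms none was called, where 12.1% of all miRNAs were called lower and 4.17% higher. The largest of them, miR-143-3p, had a log2 change of -0.42 (adjusted p = 0.361 by limma), and miR-145a-5p had -0.35 (adjusted p = 0.442 by limma). The less abundant miR-143-5p and miR-145a-3p lay above 0, at 0.53 (adjusted p = 0.402 by limma) and 0.07 (adjusted p = 0.905 by limma). Red blood cells are marked by miR-451a, miR-144 and miR-486, with miR-486a-5p and miR-486b-5p under a joint name. They summed to 2002 and 3574 CPM and then to 1851 and 2960 CPM, with overlap, and none of the 3 entries tested was called. The joint miR-486 entry had 197 and 192 CPM in the young libraries and 148 and 134 CPM in the old ones (adjusted p = 0.327 by limma). The log2 change was -0.92 for miR-144-3p (adjusted p = 0.437 by limma). For miR-451a it lay on the other side of 0, at 0.25 (adjusted p = 0.735 by limma). Leukocyte miRNAs (miR-142a, miR-223-3p, miR-150-5p and miR-155-5p) summed to 3142 and 3569 CPM and then to 2771 and 2902 CPM, without overlap on this scale. None of the 4 tested was called, and their log2 changes ran from -0.39 to 0.07. No sum of a list was rescaled by the median-of-ratios factors. Neuronal miRNAs (miR-124-3p, miR-128-3p, miR-9-5p and miR-137-3p) summed to 186111 and 196471 CPM in the young libraries and to 196718 and 170692 CPM in the old ones. The oligodendrocyte pair of miR-219a-2-3p and miR-338-3p stood between 4119 and 6565 CPM, and miR-204-5p of the choroid plexus between 2100 and 2786 CPM. Both of these overlapped between the ages. The part of any of these cell types in the level of miR-126a was not tested.

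Of the 11 miRNAs that endothelium shares with other cells, 9 were tested, 1 was called lower and none higher, a share near the 12.1% called lower over all miRNAs, with a median log2 change of -0.02 beside -0.22 over all miRNAs. The 1 called was miR-130a-3p, with 347 and 379 CPM in the young libraries and 161 and 283 CPM in the old ones (log2 change -0.76, adjusted p = 0.287 by limma). Its libraries had the same order as those of miR-126a-3p within the old group, with replicate 1 lowest. miR-221-3p and miR-222-3p lay on the other side of 0, at log2 changes of 0.48 (adjusted p = 0.360 by limma) and 0.27 (adjusted p = 0.520 by limma).

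The miRNAs most like each arm in their pattern over the 4 libraries were not the same. Likeness was the Euclidean distance between centred log2(CPM + 1) values, taken over 271 miRNAs of at least 100 CPM, with 4 points per miRNA. Nearest to miR-126a-3p were miR-130a-3p (distance 0.558), miR-337-3p (0.609), miR-144-3p (0.673), miR-335-5p (0.718) and miR-299a-5p (0.720). All of them were lowest in replicate 1 at 18 months, as miR-126a-3p was, which follows from picking them by this pattern. miR-126a-5p, cut from the same hairpin, came 176th at a distance of 1.54. Nearest to miR-126a-5p were miR-23b-3p (0.0680), miR-24-3p (0.0936), let-7f-5p (0.113), miR-219a-2-3p (0.117) and miR-181a-5p (0.120). Like miR-126a-5p they differed little between the libraries, which again follows from how they were picked. miR-126a-3p came 260th.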

How the data were processed

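Members and lists were chosen with earlier results of these data known. The authors trimmed reads (Trim Galore, by the submitters' notes), removed rare ones, matched the rest by BLAST to mouse small RNAs, and deposited normalized counts per sequence in CPM and, for each seed, a viability score. Other versions are not given in the sources used here. Each CPM was turned back into whole reads (100% of nonzero values within 0.0006 CPM of a whole read).

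log2(CPM + 1) values were fitted with limma (3.58.1, R 4.3.3, intensity trend, no covariate but age) for miRNAs and forms of at least 10 CPM and sequences of at least 1 CPM. Calls take the threshold of the study's methods, 0.05 before adjustment, and adjusted p are Benjamini-Hochberg values over all items tested. Tails are 3′ bases absent from the RefSeq hairpin. Named were both arms, forms of at least 1% of an arm, the 6 most abundant sequences per arm (not all printed), marker miRNAs, the 5 nearest by pattern, seed sharers and the 5 miRNAs of highest shifted share.

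Alternatives were a replicate block, pseudocounts of 0.1 and 5, no trend, other filters, rescaling by the median of ratios, edgeR 4.0.16 and DESeq2 1.42.0 on recovered reads, and each library left out. On simulated counts limma recovered 100% of 4-fold changes among 456 miRNAs and 97.5% among 14287 sequences. It called 2.34% of the unchanged miRNAs, 5.125% of the unchanged sequences and 7.48% of the unchanged arm ratios. Smaller changes, such as that of miR-126a-3p (log2 change -1.15), were not simulated. Recovery at the spread of miR-126a-3p in the old libraries (4523 ± 2780 CPM, SD) was not tested. The simulation thus does not give the power for the changes described here. Tables were made in Python 3.11.15 (pandas 2.3.3, numpy 2.4.6, scipy 1.17.1), figures in matplotlib 3.10.9.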

Additional observations from a re-analysis of the deposited data

How the results depend on the processing

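The log2 change of miR-126a-3p kept its direction under all alternatives, but missed the threshold by limma with the replicate block (-1.15, unadjusted p = 0.0653), after rescaling by the median of ratios (-0.94, unadjusted p = 0.0564), and on recovered reads with edgeR's quasi-likelihood test (-0.79, unadjusted p = 0.0944) and DESeq2 (-0.80, unadjusted p = 0.0666). It ran from -1.82 to -0.48 with 1 library left out. The change of miR-126a-5p turned positive after rescaling (0.15), with edgeR (0.16), with DESeq2 (0.15) and without replicate 1 at 2 months or replicate 2 at 18 months (range -0.16 to 0.032). The same held for its AUUAUU form (0.15, 0.10 and 0.083, and -0.17 to 0.039), and for UUAUUA after rescaling (0.0072) and with a library left out (-0.51 to 0.10). The 5p to 3p ratio passed limma's threshold with the replicate block (1.08, unadjusted p = 0.0115) and with a pseudocount of 5 (1.08, unadjusted p = 0.0310). It missed the threshold with a pseudocount of 0.1, without the trend and with the stricter filter. With 1 library left out its change ran from 0.31 to 1.85.

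Leaving out 1 library turned the sign of near-zero changes in the shifted to unshifted ratio (-0.13 to 0.14 for 3p and -0.26 to 0.088 for 5p), in the uridine ratio of miR-126a-5p (-0.30 to 0.26) and in the adenosine ratio of miR-126a-3p (-0.79 to 0.13). It did so too for the shifted shares (-2.29 to 2.43 points for 3p and -0.465 to 0.157 for 5p) and the mean viabilities of the arms (-0.478 to 0.573 and -0.0171 to 0.0322 points). Over sequences of at least 1 CPM alone the shifted 3p share differed by -0.0740 points. The cause was not tested for any of these.

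Without the filter the calls were 125 miRNAs (74 with it), 338 forms (120), 3327 sequences (1443) and 41 miR-126a-3p sequences called lower (27), and with a 10 times stricter one, which tests fewer items, 43, 53, 424 and 9. The stricter filter left 6 calls of 10 for the shifted ratio, 3 of 5 for the arm ratio, 1 of 7 for uridine and 11 of 19 for adenosine. DESeq2 called 941 sequences. The block gave 25 calls for the shifted ratio and 15 for the arm ratio, and a pseudocount of 5 gave 9 for the arm ratio. With 1 library left out the counts ran from 78 to 117 for forms, 9 to 25 for the shifted ratio, 1 to 11 for the arm ratio, 5 to 17 for uridine, 11 to 23 for adenosine and 3 to 36 for the miR-126a-3p sequences. The sources do not say whether same-numbered libraries, which come from mice of different ages, were prepared together. The correlation of their deviations was 0.180 over 456 miRNAs. The block is thus no known pairing, and a shared preparation of same-numbered libraries was not tested.

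Limits: 2 libraries per age, 1 of which (replicate 1 at 18 months) sets the size of the 3p fall. Sequencing depth does not limit the arms, which had at least 22674 reads in each library, but the minor forms are known less well. The tail comparisons were added after the data had been seen.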
